A study of Mus musculus with 7 samples.

Results

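The T cell receptor complex and its signalling genes were examined as a list of 32 genes, taken by matching the gene symbols of the expression table to the list. All 32 symbols were found among the 23420 gene rows. By role they were 4 CD3 chain genes, 4 kinase genes, 10 adaptor and regulator genes, 11 surface receptor genes and 3 transcription factor genes. Bulk RNA sequencing had been performed on cardiac ventricle of untreated mice aged 3 to 6 weeks, although the tissue label reads whole heart. The control group held 4 mice labelled Ctla4+/+;Pdcd1-/-. The group with immune checkpoint inhibitor (ICI) myocarditis held 3 mice labelled Ctla4+/-;Pdcd1-/-. All 7 mice therefore shared the loss of Pdcd1, which encodes the inhibitory receptor PD-1, and the groups differed in the copies of Ctla4, which encodes the inhibitory receptor CTLA-4. No inhibitor drug was given, so the comparison is between genotypes, one of which models ICI-myocarditis. The labels name no cell type or driver for either allele, so the copies of Ctla4 may be missing in any cell.

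T cells recognise peptides on MHC molecules through the T cell receptor, whose antigen-binding chains cannot signal alone and pair with the CD3 chains. The kinase Lck phosphorylates tyrosines in the CD3 chains, Zap70 binds them, and Zap70 then phosphorylates the scaffold proteins Lat and Slp-76 (encoded by Lcp2), from which calcium, Ras and protein kinase C theta signals branch. In myocarditis caused by checkpoint inhibitors, T cells and macrophages are known to infiltrate the heart muscle. In bulk tissue, fewer cells of a type and less RNA per cell cannot be told apart, and this holds for every value given here.

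Library depth ranged from 20931730 to 39037176 reads assigned to genes. Values are normalized counts, in which each library's read counts are divided by a size factor of its own. Control 2 stood apart: on the first principal component, with 68.6% of the variance, it scored 2.25, between the other controls (-96.7 to -61.2) and the ICI-myocarditis libraries (58.9 to 105). Control 2 was the highest control for 31 of the 32 genes, against 35.3% of all 15258 genes tested. Results are therefore also given without it. Ctla4 and Pdcd1 did not check the genotypes, because gene counts do not show which exons were read. Ctla4 was at 29.2, 113, 69.2 and 41.3 normalized counts in controls 1 to 4 and from 251 to 373 in ICI-myocarditis. Pdcd1 was at 9.07, 244, 3.35 and 2.50 in controls 1 to 4 and from 1096 to 1481 in ICI-myocarditis. Both were highest among controls in control 2, and whether its genotype and tissue are as labelled was not tested. The ventricular muscle genes Myl2 and Myl3 ranged from 43876 to 272621, while the atrial genes Myl7 and Sln did not exceed 48.0 and 3.70.

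Nearly the whole set was higher in ICI-myocarditis. Of the 32 genes, 31 entered the test because 3 or more libraries held 10 or more normalized counts, as did 15258 genes in all. The test was limma on log2(normalized count + 1). At an adjusted p below 0.05, 29 of the 31 were higher and 0 were lower, where 11.7% of all genes tested were called higher and 4.00% lower. At an unadjusted limma p below 0.05, 31 were higher and 0 lower, and edgeR and DESeq2 called 0 lower. The median log2 fold change was 3.92 over the 31 genes and -0.02 over all genes tested. With limma, fold changes exceeded 2 on the log2 scale for 28 genes and 4 for 14, and with edgeR on the recovered reads for 27 and 3. In 30 of the 32 genes every ICI-myocarditis library lay above every control library, which held for 17.3% of all genes tested. Txk and Lef1 were the exceptions. The 29 calls became 31 without control 2 (14.9% of all genes then called higher) and 22 without ICI-myocarditis 3 (5.51%).

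**Figure D1:**
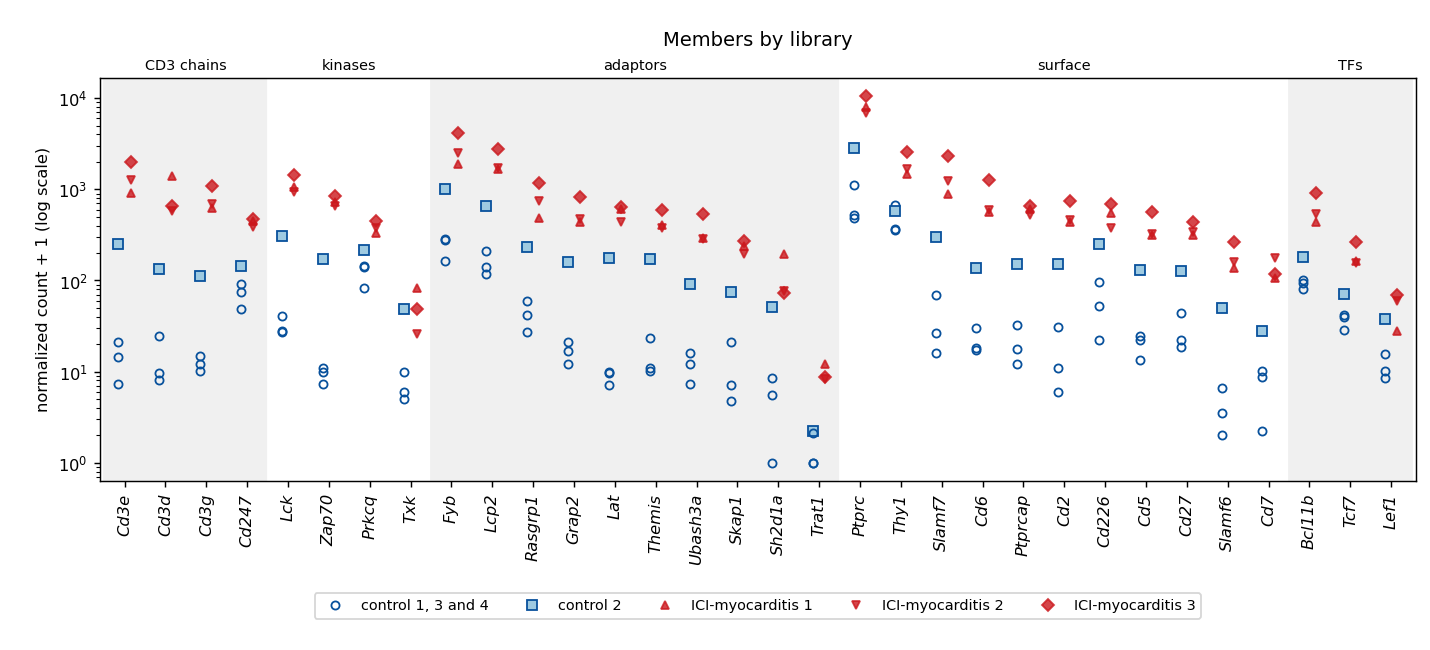
Normalized counts of the 32 genes in each library on a log axis, grouped by role, with controls and ICI-myocarditis libraries in different colours. ICI-myocarditis points lie above all control points for 30 genes, and control 2 is the highest control for 31.

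The summed level of the 32 genes was 2229, 9057, 2849 and 1778 normalized counts in controls 1 to 4 and 25852, 25196 and 39380 in ICI-myocarditis 1 to 3. They made up 0.00679%, 0.0351%, 0.00956% and 0.00476% of all normalized counts in the controls and 0.0904%, 0.0891% and 0.147% in ICI-myocarditis. Every ICI-myocarditis library thus held a larger share than control 2, and control 2 a larger share than the other controls. Within ICI-myocarditis, replicate 3 was the highest library for 27 genes (41.0% of all genes tested), replicate 1 for 4 (34.0%) and replicate 2 for 1 (25.0%). Cd3d, Sh2d1a, Txk and Trat1 were highest in replicate 1, and Cd7 in replicate 2.

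All 4 CD3 chain genes rose, by a median of 5.19 on the log2 scale. Cd3e, Cd3d and Cd3g encode the epsilon, delta and gamma chains, and Cd247 encodes the zeta chain, which carries most of the tyrosine motifs of the complex. Cd3e was at 20.2, 250.4, 13.4 and 6.26 normalized counts in controls 1 to 4 and 922, 1277 and 1992 in ICI-myocarditis 1 to 3. Its log2 fold change of 5.61 (limma adjusted p = 0.00793, SE 1.01) was the largest of the list with limma, while edgeR put Cd3g (4.45) and Cd3d (4.33) above Cd3e (4.22). Control 2 held many more Cd3e counts than the other controls, yet still lay below each ICI-myocarditis library. Cd3g was at 9.07, 111, 11.2 and 13.8 normalized counts in controls 1 to 4 and 625, 698 and 1093 in ICI-myocarditis 1 to 3, a log2 fold change of 5.20 (limma adjusted p = 0.00405, SE 0.76). Its controls other than replicate 2 were close together. Cd3d was at 7.06, 132, 23.4 and 8.76 normalized counts in controls 1 to 4 and 1391, 573 and 662 in ICI-myocarditis 1 to 3, a log2 fold change of 5.17 (limma adjusted p = 0.0062, SE 0.87). ICI-myocarditis 1 was the highest library for Cd3d, unlike for Cd3e and Cd3g. Cd247 was at 73.6, 143, 90.4 and 47.5 normalized counts in controls 1 to 4 and 447, 386 and 466 in ICI-myocarditis 1 to 3, a log2 fold change of 2.38 (limma adjusted p = 0.00422, SE 0.35). Cd247 had a higher control level and the smallest change of the 4. In GENCODE M21, 2918 of its 4558 exonic bases (64.0%) overlap exons of Pou2f1 on the opposite strand. Pou2f1 lay between 978 and 1248 normalized counts in all libraries, with a log2 fold change of -0.05 (limma adjusted p = 0.871). Whether counting used strand is not given in the sources used here, so reads of Cd247 and Pou2f1 may not be told apart. The part of Pou2f1 reads in the Cd247 values was not tested. The summed CD3 chains were at 109.9, 637, 138 and 76.3 normalized counts in controls 1 to 4 and 3386, 2933 and 4214 in ICI-myocarditis 1 to 3.

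Cd3e, Cd3d and Cd3g lie together on mouse chromosome 9 (GRCm38). Cd3g (chr9:44969572-44980431, minus strand) and Cd3d (chr9:44981786-44987339, plus strand) start 1355 bases apart and run in opposite directions, and 11400 bases lie between the ends of Cd3d and Cd3e (chr9:44998740-45009627, minus strand). Cd247 is on chromosome 1 (chr1:165788681-165877277, plus strand). Because all 4 CD3 chain genes rose, the 250 bases before their RefSeq starts (GRCm38.p6) are shown, 5′ to 3′ on the gene's strand. Capitals mark the letters AGGAAG (ETS factors), ACCACA (RUNX factors) and CTTTGA (TCF and LEF factors) or their reverse complements. The windows are chr9:45009612-45009861 (minus) for Cd3e, chr9:44981536-44981785 (plus) for Cd3d, chr9:44980432-44980681 (minus) for Cd3g and chr1:165788431-165788680 (plus) for Cd247.
Cd3e: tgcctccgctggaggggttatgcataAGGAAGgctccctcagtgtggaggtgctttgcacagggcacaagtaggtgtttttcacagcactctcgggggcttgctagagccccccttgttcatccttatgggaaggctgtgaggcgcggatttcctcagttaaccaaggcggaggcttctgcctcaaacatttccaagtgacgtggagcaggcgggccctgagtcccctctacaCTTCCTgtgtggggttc
Cd3d: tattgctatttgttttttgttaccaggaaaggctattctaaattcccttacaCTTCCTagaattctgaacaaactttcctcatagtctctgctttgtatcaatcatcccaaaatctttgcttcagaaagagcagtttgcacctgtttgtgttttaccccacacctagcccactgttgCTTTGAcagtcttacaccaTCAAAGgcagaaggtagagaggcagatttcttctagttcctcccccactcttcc
Cd3g: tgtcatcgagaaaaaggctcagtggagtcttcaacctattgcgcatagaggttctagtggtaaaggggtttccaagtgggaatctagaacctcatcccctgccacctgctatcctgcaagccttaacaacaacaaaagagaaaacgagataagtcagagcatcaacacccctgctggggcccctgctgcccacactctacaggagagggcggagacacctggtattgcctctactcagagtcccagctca
Cd247: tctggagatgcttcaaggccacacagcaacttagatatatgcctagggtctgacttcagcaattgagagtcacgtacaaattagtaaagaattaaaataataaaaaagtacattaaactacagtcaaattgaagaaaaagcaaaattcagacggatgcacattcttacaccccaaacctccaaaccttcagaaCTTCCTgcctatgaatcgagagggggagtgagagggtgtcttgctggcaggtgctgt
Cd3e held the ETS letters at 2 places, Cd3d held them at 1 and the TCF and LEF letters at 2, and Cd247 held the ETS letters at 1. Cd3g held none of these letters in this window, although its start faces that of Cd3d. Over the 24 genes of the list with an entry in the RefSeq promoter table, the ETS letters occurred in 12 (29.2% of 27025 promoters), the TCF and LEF letters in 7 (14.0%) and the RUNX letters in 2 (14.2%). E-box letters (CANNTG) occurred in 18 of the 24 (66.0%) and GATA letters (GATAAG) in 4 (6.60%), on either strand and including matches that overlap another motif. Such matches describe the letters and do not show binding.

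Of the 4 kinase genes, Lck, Zap70 and Prkcq rose and Txk did not pass the test. Lck encodes the Src family kinase that starts the signal. Lck was at 27.2, 303, 40.2 and 26.3 normalized counts in controls 1 to 4 and 1071, 926 and 1440.3 in ICI-myocarditis 1 to 3, a log2 fold change of 4.34 (limma adjusted p = 0.00698, SE 0.76). Zap70 encodes the kinase that docks on the CD3 chains. Zap70 was at 10.1, 169, 8.93 and 6.26 normalized counts in controls 1 to 4 and 727, 652 and 844 in ICI-myocarditis 1 to 3, a log2 fold change of 5.27 (limma adjusted p = 0.00795, SE 0.95). In both genes control 2 was well above the other controls, which lay between 26.3 and 40.2 for Lck and between 6.26 and 10.1 for Zap70. Prkcq encodes protein kinase C theta, which carries the signal towards NF-kappaB. Prkcq was at 144, 213, 138 and 81.3 normalized counts in controls 1 to 4 and 330.5, 374 and 450.0 in ICI-myocarditis 1 to 3, a log2 fold change of 1.48 (limma adjusted p = 0.0157, SE 0.32), and its call was lost without ICI-myocarditis 2 (limma adjusted p = 0.0534) or 3 (limma adjusted p = 0.0722). Its change was the smallest of the called genes, and control 4 was its lowest control. Txk encodes a Tec family kinase of T and NK cells. Txk was at 4.03, 48.1, 8.93 and 5.005 normalized counts in controls 1 to 4 and 80.8, 24.6 and 47.4 in ICI-myocarditis 1 to 3, a log2 fold change of 2.08 (limma adjusted p = 0.113, SE 0.80). ICI-myocarditis 2 and 3 lay below control 2 for Txk, and without control 2 it passed (log2 fold change 2.80, limma adjusted p = 0.00578).

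The promoters of Lck and Zap70, the kinases with the largest changes, are shown in the same way, at chr4:129573642-129573891 (minus) and chr1:36761548-36761797 (plus).
Lck: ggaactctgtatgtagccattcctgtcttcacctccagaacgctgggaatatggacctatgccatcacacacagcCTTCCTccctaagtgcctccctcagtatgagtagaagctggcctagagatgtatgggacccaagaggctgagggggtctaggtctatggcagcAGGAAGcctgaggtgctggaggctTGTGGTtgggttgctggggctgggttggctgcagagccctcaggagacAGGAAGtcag
Zap70: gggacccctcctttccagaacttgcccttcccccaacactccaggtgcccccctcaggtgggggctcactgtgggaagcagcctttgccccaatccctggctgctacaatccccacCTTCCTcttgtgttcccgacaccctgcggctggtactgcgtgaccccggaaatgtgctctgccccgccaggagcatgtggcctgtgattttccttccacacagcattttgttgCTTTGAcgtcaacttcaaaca
Lck held the ETS letters at 3 places and the RUNX letters at 1, and Zap70 held the ETS letters at 1 and the TCF and LEF letters at 1.

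All 9 adaptor and regulator genes tested rose, by a median of 3.94 on the log2 scale. Lat encodes the membrane scaffold phosphorylated by Zap70. Lat was at 6.05, 175, 8.93 and 8.76 normalized counts in controls 1 to 4 and 612, 439 and 635 in ICI-myocarditis 1 to 3, a log2 fold change of 4.90 (limma adjusted p = 0.0112, SE 0.98). The other controls were far below control 2, and edgeR on the recovered reads did not call Lat (edgeR adjusted p = 0.0597). Lcp2 encodes Slp-76, the cytosolic scaffold that joins Lat. Lcp2 was at 118, 656, 208 and 139 normalized counts in controls 1 to 4 and 1672, 1706 and 2796 in ICI-myocarditis 1 to 3, a log2 fold change of 3.19 (limma adjusted p = 0.00596, SE 0.53). Grap2 encodes Gads, which links Slp-76 to Lat. Grap2 was at 20.2, 160.4, 15.6 and 11.3 normalized counts in controls 1 to 4 and 436, 467 and 817 in ICI-myocarditis 1 to 3, a log2 fold change of 4.25 (limma adjusted p = 0.00866, SE 0.79). In these genes the ICI-myocarditis libraries were all above control 2, the lowest of them at 2.51 times its level for Lat, 2.55 times for Lcp2 and 2.72 times for Grap2. Fyb and Skap1 encode adaptors that couple the receptor to integrins. Fyb was at 283, 1020.2, 280.3 and 164 normalized counts in controls 1 to 4 and 1888, 2523 and 4129 in ICI-myocarditis 1 to 3, a log2 fold change of 2.99 (limma adjusted p = 0.00835, SE 0.55). Skap1 was at 6.05, 72.8, 20.1 and 3.75 normalized counts in controls 1 to 4 and 239, 192 and 269 in ICI-myocarditis 1 to 3, a log2 fold change of 3.94 (limma adjusted p = 0.0133, SE 0.83), a call lost without ICI-myocarditis 3 (limma adjusted p = 0.0555). For both, control 2 was the highest control and lay below every ICI-myocarditis library.

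Rasgrp1 encodes an activator of Ras that responds to diacylglycerol. Rasgrp1 was at 26.2, 234, 59.2 and 41.3 normalized counts in controls 1 to 4 and 488, 749 and 1182 in ICI-myocarditis 1 to 3, a log2 fold change of 3.57 (limma adjusted p = 0.00837, SE 0.66). Themis encodes a T cell protein needed for thymocyte selection. Themis was at 9.07, 170.2, 22.3 and 10.01 normalized counts in controls 1 to 4 and 403, 374 and 585 in ICI-myocarditis 1 to 3, a log2 fold change of 4.11 (limma adjusted p = 0.0138, SE 0.87), which edgeR did not call (edgeR adjusted p = 0.0583) and which was lost without ICI-myocarditis 3 (limma adjusted p = 0.0589). Ubash3a encodes a suppressor of T cell receptor signalling. Ubash3a was at 15.1, 90.1, 11.2 and 6.26 normalized counts in controls 1 to 4 and 292, 286 and 537 in ICI-myocarditis 1 to 3, a log2 fold change of 4.23 (limma adjusted p = 0.00765, SE 0.76). The groups were apart for each of these genes, and control 2 was again the nearest control. Sh2d1a encodes SAP, the adaptor of the SLAM receptors. Sh2d1a was at 0, 50.6, 4.47 and 7.51 normalized counts in controls 1 to 4 and 194, 76.1 and 72.6 in ICI-myocarditis 1 to 3, a log2 fold change of 3.89 (limma adjusted p = 0.0441, SE 1.11). That call held in 6 of 18 alternatives, being lost with edgeR (edgeR adjusted p = 0.0989), with DESeq2 (DESeq2 adjusted p = 0.144) and on leaving out any library but control 2 (limma adjusted p from 0.0633 to 0.129). In GENCODE M21, 575 of its 1523 exonic bases (37.8%) overlap Tenm1 on the opposite strand, which did not exceed 11.1 normalized counts. Trat1 encodes TRIM, an adaptor that associates with the receptor complex. It was at 0, 1.23, 1.12 and 0 normalized counts in controls 1 to 4 and 11.3, 7.25 and 7.64 in ICI-myocarditis 1 to 3, too few counts to be tested. Its highest control lay below its lowest ICI-myocarditis library.

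All 11 surface receptor genes rose, by 1.95 to 4.69 on the log2 scale with a median of 3.92. Ptprc encodes CD45, the phosphatase of all leukocytes that activates Lck, and Ptprcap encodes a protein associated with it. Ptprc was at 483, 2874, 1108 and 518 normalized counts in controls 1 to 4 and 8012, 6879 and 10493 in ICI-myocarditis 1 to 3, a log2 fold change of 3.14 (limma adjusted p = 0.00728, SE 0.56). Ptprcap was at 31.3, 152, 16.7 and 11.3 normalized counts in controls 1 to 4 and 608, 520.3 and 658 in ICI-myocarditis 1 to 3, a log2 fold change of 4.21 (limma adjusted p = 0.00714, SE 0.74). Both genes were separated between groups, with the ICI-myocarditis libraries of Ptprcap close together. All 927 exonic bases of Ptprcap overlap Rps6kb2 on the opposite strand in GENCODE M21, and Rps6kb2 lay between 343 and 484 normalized counts with a log2 fold change of 0.01 (limma adjusted p = 0.988). Macrophages also express Ptprc, and of 11 macrophage genes tested 10 were higher. Their summed level was 15803 to 21041 normalized counts in controls and 60917 to 92887 in ICI-myocarditis. The part of macrophages in the Ptprc, Lcp2 and Fyb values was not tested.

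Cd2 encodes an adhesion receptor for CD48, and Cd5 and Cd6 encode scavenger receptor family proteins that tune T cell receptor signals. Cd2 was at 10.1, 149, 30.1 and 5.005 normalized counts in controls 1 to 4 and 437, 462 and 736 in ICI-myocarditis 1 to 3, a log2 fold change of 4.49 (limma adjusted p = 0.0125, SE 0.93), which was lost without ICI-myocarditis 3 (limma adjusted p = 0.0552). Cd5 was at 21.2, 128, 23.4 and 12.5 normalized counts in controls 1 to 4 and 316, 322 and 561 in ICI-myocarditis 1 to 3, a log2 fold change of 3.63 (limma adjusted p = 0.0089, SE 0.68). Cd6 was at 17.1, 136, 29.03 and 16.3 normalized counts in controls 1 to 4 and 564, 591 and 1269.9 in ICI-myocarditis 1 to 3, a log2 fold change of 4.48 (limma adjusted p = 0.00455, SE 0.69). All were low in controls 1, 3 and 4, and Cd6 was well above the other ICI-myocarditis libraries in replicate 3. Cd27 encodes a costimulatory receptor of the TNF receptor family. Cd27 was at 21.2, 127, 42.4 and 17.5 normalized counts in controls 1 to 4 and 315, 341 and 436 in ICI-myocarditis 1 to 3, a log2 fold change of 3.22 (limma adjusted p = 0.00887, SE 0.60). Cd7 was at 9.07, 27.1, 7.82 and 1.25 normalized counts in controls 1 to 4 and 106, 177 and 116 in ICI-myocarditis 1 to 3, a log2 fold change of 3.92 (limma adjusted p = 0.00896, SE 0.74). Cd7 was the only gene of the list to peak in ICI-myocarditis 2. Thy1 encodes a surface protein of mouse T cells that fibroblasts and neurons also carry. Thy1 was at 666, 576, 366 and 360.3 normalized counts in controls 1 to 4 and 1463, 1664 and 2569 in ICI-myocarditis 1 to 3, a log2 fold change of 1.95 (limma adjusted p = 0.00426, SE 0.29). It was the only gene of the list whose highest control was control 1, and its controls were within a narrow range. Of 6 fibroblast genes, Col1a1 and Col1a2 were higher and the other 4 were not called. Their summed level was 34104 to 51752 in controls and 63416 to 124640 in ICI-myocarditis, and their part in the Thy1 values was not tested.

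Slamf6 and Slamf7 encode SLAM family receptors of lymphocytes, and Cd226 encodes an activating receptor for nectin-like ligands. Slamf6 was at 1.008, 49.3, 5.58 and 2.50 normalized counts in controls 1 to 4 and 136, 157 and 266 in ICI-myocarditis 1 to 3, a log2 fold change of 4.69 (limma adjusted p = 0.012, SE 0.96), which was lost without ICI-myocarditis 3 (limma adjusted p = 0.0557). Slamf7 was at 25.2, 296, 68.1 and 15.01 normalized counts in controls 1 to 4 and 892, 1231 and 2317 in ICI-myocarditis 1 to 3, a log2 fold change of 4.66 (limma adjusted p = 0.00866, SE 0.87). Cd226 was at 21.2, 253, 51.4 and 96.3 normalized counts in controls 1 to 4 and 546, 375 and 689 in ICI-myocarditis 1 to 3, a log2 fold change of 2.83 (limma adjusted p = 0.0251, SE 0.70). Slamf7 differed most between ICI-myocarditis libraries among these, and for Cd226 control 4 also stood above controls 1 and 3. The Cd226 call held in 13 of 18 alternatives. It was lost with edgeR (edgeR adjusted p = 0.0547) and without control 3 or any ICI-myocarditis library (limma adjusted p from 0.0502 to 0.0977).

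Of the 3 transcription factor genes, Bcl11b and Tcf7 rose and Lef1 did not pass. Bcl11b encodes a factor that commits precursors to the T lineage, and Tcf7 and Lef1 encode TCF-1 and LEF-1, factors high in naive and memory T cells. Bcl11b was at 93.8, 180.1, 80.4 and 100.1 normalized counts in controls 1 to 4 and 437, 534 and 914 in ICI-myocarditis 1 to 3, a log2 fold change of 2.46 (limma adjusted p = 0.00392, SE 0.35), the lowest adjusted p of the list. Tcf7 was at 40.3, 70.3, 39.1 and 27.5 normalized counts in controls 1 to 4 and 162, 156 and 261 in ICI-myocarditis 1 to 3, a log2 fold change of 2.14 (limma adjusted p = 0.00716, SE 0.38). Lef1 was at 9.07, 37.0, 14.5 and 7.51 normalized counts in controls 1 to 4 and 26.6, 58.0 and 68.0 in ICI-myocarditis 1 to 3, a log2 fold change of 1.69 (limma adjusted p = 0.0876, SE 0.59). For Bcl11b and Tcf7 the groups were apart, while ICI-myocarditis 1 lay below control 2 for Lef1. Without control 2 Lef1 passed (log2 fold change 2.13, limma adjusted p = 0.0128). In GENCODE M21, 1208 of the 3506 exonic bases of Lef1 overlap Gm43352 on the opposite strand, whose values are not given here. Of the 32 genes, 11 have some exonic overlap on the opposite strand.

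**Figure D2:**
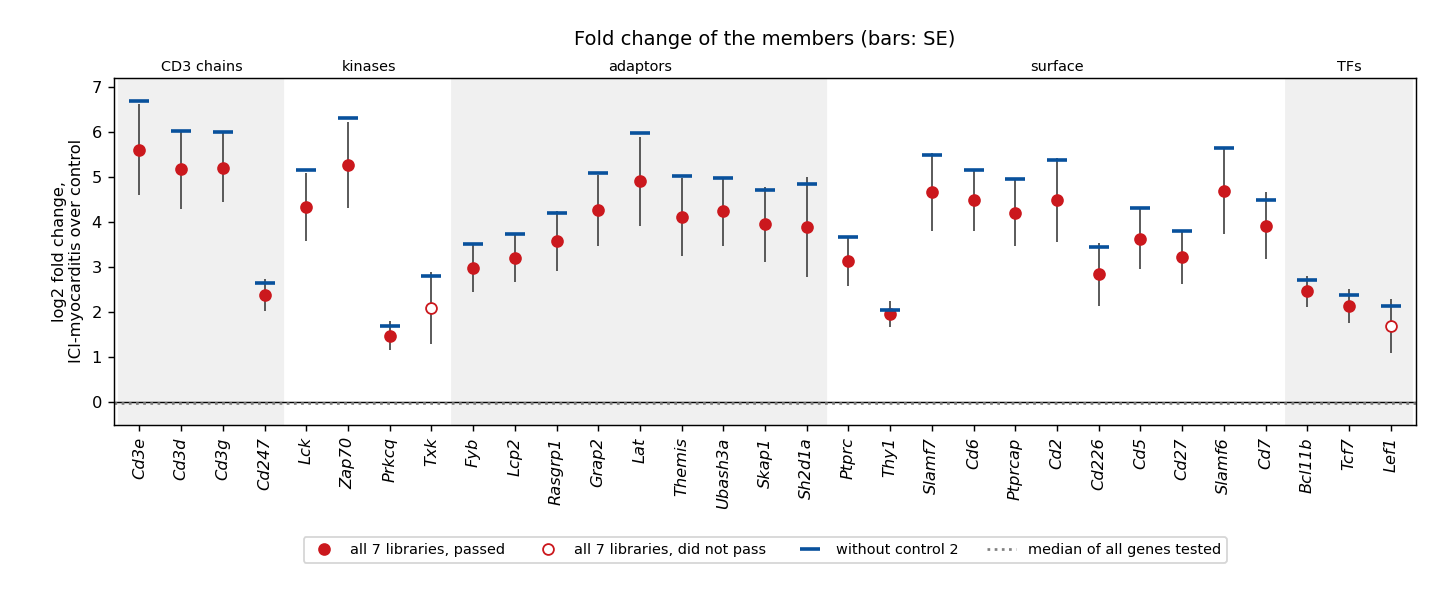
Log2 fold change of ICI-myocarditis over control for the 31 tested genes by role, with bars of 1 standard error, and the same without control 2. Values run from 1.48 for Prkcq to 5.61 for Cd3e with all libraries, and all 31 lie above 0.

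Leaving out control 2 raised the limma fold change of all 31 genes tested, which had to follow for the 30 whose highest control it was. Zap70 went from 5.27 to 6.31, Cd3e from 5.61 to 6.67 and Lat from 4.90 to 5.98. The ratio of control 2 to the mean of the other controls ranged from 1.24 for Thy1 to 22.1 for Lat, with a median of 7.02. On the recovered reads edgeR called 25 of the 31 genes (10.1% of all genes higher), with log2 fold changes from 1.39 to 4.45. The authors' deposited table gave 26 of the 32 genes an adjusted p below 0.05, where it did so in the upward direction for 13.8% of the genes tested here. Sh2d1a (0.152) and Txk (0.154) were above that threshold in the authors' deposited table. For Cd2, Lat, Themis and Grap2 the authors' deposited table held a fold change but no p-value, which was so for 0.223% of the genes tested here. Counted over 18 alternatives to the test, 21 of the 31 genes were called in every alternative that gave a value.

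Levels between genes were compared per kilobase of exonic sequence in GENCODE M21. In ICI-myocarditis the highest level was that of Ptprc, at 1653 ± 361 normalized counts per kb (SD, n = 3). Fyb (1067 ± 433), Thy1 (1011 ± 314), Cd3e (955 ± 373) and Cd3g (787 ± 246) followed. Ptprc was above Fyb by more than either SD, and the next neighbours were within their spread. Ptprcap was at 642 ± 75.1, Cd3d at 541 ± 278, Lck at 495 ± 114 and Lat at 451 ± 85.9. Among the other genes Zap70 was at 330 ± 43.1 (SD, n = 3), Cd247 at 94.98 ± 9.24 and Tcf7 at 73.5 ± 22.6. The lowest were Slamf6 (26.4 ± 9.88), Txk (20.9 ± 11.6), Lef1 (14.5 ± 6.16) and Trat1 (1.87 ± 0.474). Along this order of 32 levels, 5 of 31 steps between neighbours exceeded the SDs of both. In controls Thy1 ranked highest and Ptprc next, and Cd3g, the fifth gene in ICI-myocarditis, ranked 11.

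The next comparison asked whether the other genes changed as much as the CD3 chains. For each library the mean log2 level of Cd3e, Cd3d, Cd3g and Cd247 was subtracted from every gene, and limma was fitted on these differences over all genes. The same subtracted mean entered every gene, while limma pooled the variance as if the genes were independent. With 7 libraries the intervals and p-values of this comparison may therefore be off in either direction. Intervals may be too narrow for some genes and too wide for genes that varied little on this scale. Cd5, for example, had an SE of 0.89 with SDs of 0.20 in controls and 0.30 in ICI-myocarditis. Of the 27 other genes tested, 6 were lower relative to the CD3 chains in ICI-myocarditis than in control and 0 were higher, while 96.1% of all genes tested were lower and 0.0393% higher. At an unadjusted limma p below 0.05, 6 were lower and 0 higher. Because most genes tested were called lower, the adjustment over all genes changed these p-values little. The adjusted p-values of this comparison are thus hardly corrected for the number of genes read. The median difference was -0.70 over the 27 genes and -4.61 over all genes tested. In 14 of the 27 every ICI-myocarditis library lay below every control, which held for 96.2% of all genes tested.

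The 6 genes were Prkcq, Lef1, Thy1, Txk, Tcf7 and Bcl11b, so all 3 transcription factors and the kinases with the smallest changes were among them. Each difference is that gene's log2 fold change minus the mean change of the CD3 chains. The 6 genes are thus those with the smallest fold changes of the 27, and the calls restate that ranking. In controls 1, 3 and 4 Cd3e lay between 6.26 and 20.2 normalized counts. There Thy1 lay between 360.3 and 666, Prkcq between 81.3 and 144 and Bcl11b between 80.4 and 100.1. Tcf7 lay between 27.5 and 40.3, while Lef1 and Txk did not exceed 14.5. The part of cells other than T cells in these control levels was not tested, so the calls do not show a loss per T cell. Prkcq relative to the CD3 chains was at 2.94, 0.49, 2.48 and 2.46 in controls 1 to 4 and -1.23, -0.83 and -1.01 in ICI-myocarditis 1 to 3. The difference was -3.11 (95% interval -4.97 to -1.25, limma adjusted p = 0.00116). Controls 1, 3 and 4 were high on this scale, control 2 was nearer to 0, and the ICI-myocarditis libraries were below 0. The difference for Tcf7 was -2.45 (95% interval -4.20 to -0.71, limma adjusted p = 0.00627), for Lef1 -2.90 (95% interval -4.63 to -1.18, limma adjusted p = 0.00106) and for Bcl11b -2.13 (95% interval -4.00 to -0.26, limma adjusted p = 0.0265). For Thy1 it was -2.63 (95% interval -4.66 to -0.61, limma adjusted p = 0.0114) and for Txk -2.51 (95% interval -4.23 to -0.78, limma adjusted p = 0.00468). The 2 genes called in every alternative with a value were Prkcq (17 of 17) and Lef1 (16 of 16), followed by Tcf7 (16 of 17), Txk (15 of 16), Thy1 (14 of 17) and Bcl11b (10 of 17). Without control 2 the count of lower genes was 13. Cd247, itself part of the reference, had a mean of 1.37 in controls and -0.84 in ICI-myocarditis on this scale.

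Other signalling genes did not pass in this comparison, and the intervals were wide. In this fit limma gave the 27 genes SEs between 0.879 and 1.08, whatever the spread of a gene's own values, so an interval does not show how closely that gene followed the CD3 chains. Lck relative to the CD3 chains was at 0.58, 0.998, 0.72 and 0.86 in controls 1 to 4 and 0.47, 0.48 and 0.67 in ICI-myocarditis 1 to 3. Its difference was -0.25 (95% interval -2.11 to 1.60, limma adjusted p = 0.793). The Lck values of all 7 libraries thus lay within a narrow band on this scale. Zap70 was at -0.77, 0.16, -1.33 and -1.05 in controls 1 to 4 and -0.09, -0.03 and -0.10 in ICI-myocarditis 1 to 3, a difference of 0.68 (95% interval -1.08 to 2.43, limma adjusted p = 0.456). Control 2 was level with the ICI-myocarditis libraries for Zap70, and without it the difference passed (limma adjusted p = 0.0183). The difference for Lat was 0.31 (95% interval -1.43 to 2.05, limma adjusted p = 0.732), and for Slamf7 0.07 (95% interval -1.80 to 1.93, limma adjusted p = 0.945). None of these intervals excluded 0, and they also allowed differences of more than 1 in either direction.

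**Figure D3:**
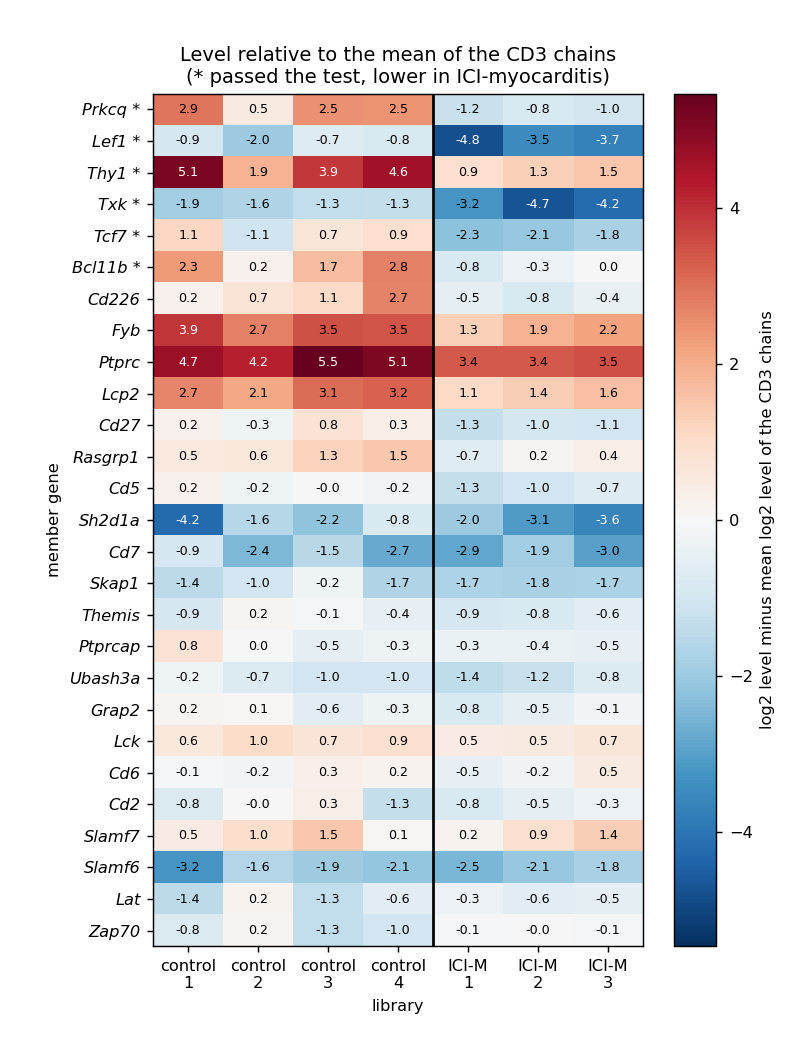
Heat map of the log2 level of the 27 other tested genes in each library, relative to the mean of the 4 CD3 chain genes. Asterisks mark the genes called lower in ICI-myocarditis, which are Prkcq, Lef1, Thy1, Txk, Tcf7 and Bcl11b, with differences from -3.11 to -2.13.

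Other genes of the pathway were read from 6 lists of 85 genes in all, of which 84 were tested, 44 were called higher and 1 lower (11.7% and 4.00% of all genes tested). At an unadjusted limma p below 0.05, 2 were lower, while edgeR called 0 lower and DESeq2 1. Without ICI-myocarditis 3 the calls numbered 25. The antigen-binding receptor chain genes were not analysed here, because 0 of 12 names sought was in the table. Of 14 genes acting near the receptor, 8 were higher and 1 was lower, with a median log2 fold change of 1.44. Was, which drives actin assembly, rose by 2.52 (limma adjusted p = 0.00422, SE 0.38) and Coro1a, an actin regulator, by 2.80 (limma adjusted p = 0.00603, SE 0.47). Nck1, an adaptor to actin, was at 964, 1770.2, 1785 and 1535 normalized counts in controls 1 to 4 and 1006, 717 and 692 in ICI-myocarditis 1 to 3 and fell by 0.89 on the log2 scale (limma adjusted p = 0.0483, SE 0.26). The Nck1 call held in 6 of 18 alternatives, with adjusted p up to 0.181, and not without control 2 (limma adjusted p = 0.0671). Fyn, Plcg1, Grb2, Sos1 and Pik3r1, which many tissues express, were not called.

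Of 19 negative regulators, 13 were higher, with a median of 1.36, and 8 without control 3 or without ICI-myocarditis 3. Sla, which encodes an adaptor that lowers receptor levels, rose by 2.98 (limma adjusted p = 0.00251, SE 0.34). Tagap, a GTPase activator gene, rose by 2.57 (limma adjusted p = 0.00376, SE 0.36) and Ubash3b, the relative of Ubash3a, by 2.42 (limma adjusted p = 0.00532, SE 0.39). Of 21 genes further downstream 3 were higher, a share close to the 11.7% of all genes tested, and the median was 0.07. Among them Nfatc1 and Nfatc2, calcium-controlled transcription factor genes, rose by 1.14 (limma adjusted p = 0.0234, SE 0.28) and 0.87 (limma adjusted p = 0.0411, SE 0.24). All 3 calls were lost without control 3 or without ICI-myocarditis 3, and 1 call was left without control 1 or without ICI-myocarditis 2. The kinase, calcineurin and calcium channel genes of the list, such as Ppp3ca and Itpr1, were not called.

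Of 13 early target genes tested, 9 were higher, with a median of 2.07. Egr2 was at 32.3, 39.5, 20.1 and 15.01 normalized counts in controls 1 to 4 and 219, 414 and 697 in ICI-myocarditis 1 to 3 and rose by 3.94 (limma adjusted p = 0.00285, SE 0.47). Myc rose by 2.07 (limma adjusted p = 0.00495, SE 0.33) and Cd69, an early activation marker, by 4.42 (limma adjusted p = 0.00552, SE 0.72). Nr4a1, an immediate target of the receptor, ranged from 122.8 to 3455 normalized counts in controls and from 523 to 1149 in ICI-myocarditis and was not called (limma adjusted p = 0.774). Il2 did not exceed 4.58 in any library and was not tested. The early target calls numbered 4 without ICI-myocarditis 3 and 5 without ICI-myocarditis 2. All 8 genes of the further SLAM family list, which includes the adaptor gene Sh2d1b1, rose, with a median of 3.41. Among them Cd84 rose by 2.92 (limma adjusted p = 0.00251, SE 0.32), Cd48 by 2.71 (limma adjusted p = 0.00376, SE 0.38) and Slamf9 by 3.03 (limma adjusted p = 0.00324, SE 0.39). Macrophages and other myeloid cells also express Cd84, Cd48 and Slamf9, and the part of macrophages in the pathway lists was not tested. Of 9 genes of naive and memory T cells, 3 were higher, with a median of -0.21. Among them Il7r, the receptor gene for a T cell survival cytokine, rose by 3.83 (limma adjusted p = 0.00834, SE 0.70) and Ccr7, a lymph node homing receptor gene, by 3.25 (limma adjusted p = 0.0165, SE 0.72). The other 6, such as S1pr1 and Klf2, were not called. Without control 1, or without any of the ICI-myocarditis libraries, 1 of the 9 was called.

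**Figure D4:**
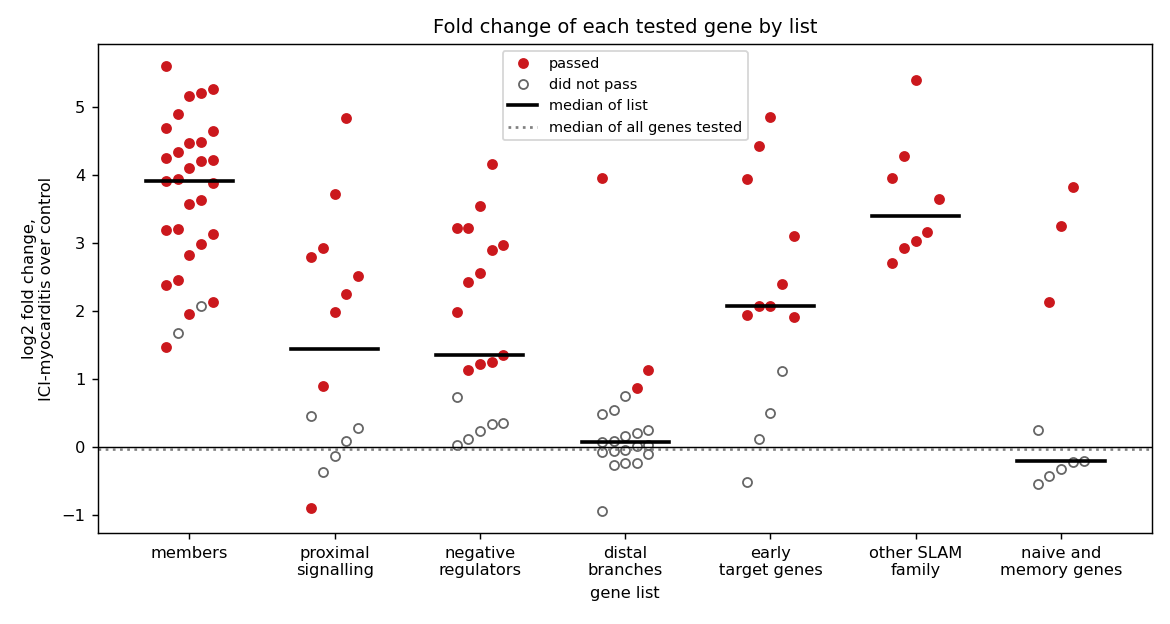
Log2 fold change of each tested gene (points) and the median (line) for the 32-gene list and each pathway list. The median is 3.92 for the 32-gene list, 3.41 for the SLAM family list, which includes the adaptor gene Sh2d1b1, and 0.07 for the downstream genes.

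Markers of T cells and of other cells were read in the same libraries. All 8 further T cell genes were higher, with a summed level of 432 to 1817 normalized counts in controls and 6617 to 10312 in ICI-myocarditis. Among them Cd8a was at 35.3, 572, 42.4 and 22.5 normalized counts in controls 1 to 4 and 2569, 2515 and 3888 in ICI-myocarditis 1 to 3, and Cd4 at 72.6, 92.5, 42.4 and 45.0 normalized counts in controls 1 to 4 and 333, 401 and 683 in ICI-myocarditis 1 to 3. Control 2 was the highest control for both, with Cd8a well above its other controls. NK cells share Cd247, Lck, Zap70, Sh2d1a, Txk, Cd7 and Slamf7 with T cells. Of 6 NK genes tested, limma called Klri2, Klre1 and Eomes higher (11.7% of all genes tested), while edgeR and DESeq2 each called 1. The Klri2 call held in 18 of 18 alternatives, that of Eomes in 11 of 18 and that of Klre1 in 7 of 17. The summed NK level was 40.3 to 409.5 in controls and 369 to 579 in ICI-myocarditis. Ncr1, which defines NK cells, was at 6.05, 44.4, 22.3 and 5.005 normalized counts in controls 1 to 4 and 54.2, 24.6 and 18.3 in ICI-myocarditis 1 to 3 and was not called (limma adjusted p = 0.395), and Klra8 and Klra4 were at 0 in every library. Klrb1c was not called (limma adjusted p = 0.0934) but passed without control 2 (limma adjusted p = 0.00932). Klrb1a, not tested, was at 1.008, 0, 0 and 0 in controls 1 to 4 and 10.2, 10.9 and 9.17 in ICI-myocarditis 1 to 3. Klra9, not called (limma adjusted p = 0.214), was at 21.2, 184, 69.2 and 47.5 in controls 1 to 4 and 48.1, 21.7 and 6.11 in ICI-myocarditis 1 to 3. The summed NK level of control 2 includes this Klra9 value. The part of NK cells in the shared genes was not tested.

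Genes of the thymus, which lies beside the heart and expresses many of the listed genes, were also read. Rag1 was at 0 in all libraries but control 3 (6.70), Foxn1 was at 0 in all, Ptcra did not exceed 1.02 and Dntt did not exceed 3.06. Rag2 ranged from 1.25 to 10.05 in controls and from 3.07 to 4.58 in ICI-myocarditis, and Prss16 from 0 to 1.25 and from 4.35 to 8.19. Cd1d1, Arpp21 and Ccl25, which other tissues also express, ranged from 12.3 to 178 over all libraries. Of 10 thymus genes 3 could be tested and 0 were called by limma, edgeR or DESeq2, with 0 of the 3 at an unadjusted limma p below 0.05. Their summed level was 134 to 283 in controls and 154 to 187 in ICI-myocarditis, and the part of thymus tissue in the values of the 32 genes was not tested. Of 7 B cell genes tested, Cd22 alone was higher, and the summed level was 209 to 698 in controls and 394 to 894 in ICI-myocarditis. Of 8 heart muscle genes, limma called 0 (2 at an unadjusted p below 0.05, all lower), edgeR 0 and DESeq2 3. Their sum was lowest among controls in control 2 (2414752, against 3785312 to 4881733 in the others). In control 2 the T cell sum was 1817 against 432 to 609 in the other controls, and the macrophage sum was 21041 against 15803 to 20662. Abundant genes weigh most in the macrophage sum, such as Lyz2 (7208 in control 2, 3968 to 8614 in the others). Fcgr1 was at 243 in control 2 against 69.6 to 170 and Itgam at 522 against 281 to 363. Cd68, Emr1, C1qa, C1qb and C1qc were also highest among controls in control 2, while Csf1r, Cd14, Lyz2 and Mrc1 were not.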

How the data were processed

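RNA from the hearts of 7 mice (4 control, 3 ICI-myocarditis) was sequenced from a stranded total RNA kit with paired reads, per the labels' protocols. Group and replicate were taken from the sample titles and genotypes. The animals were separate mice per the series' design text. The deposited table gives, as a signal made by the authors, gene read counts divided by a size factor per library. It also holds, per the file headers, the authors' log2 fold change, a score that is their test statistic, and their p-value and adjusted p-value. STAR 2.7.3 and the builds GRCm38 and mm10 are named in the submitters' processing notes. The counting program, annotation and strand setting are not given in the sources used here. Rows whose names had turned into dates numbered 27 and held 0.143% of reads.

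Read counts recovered from the smallest step of each column were whole for 100% of values within 0.01. For control 1 the step was 1.01, so near 1 that this check says little. SEs and 95% intervals come from limma and rest on the variation between libraries. The reads have no molecular identifiers, so read counts are not counts of molecules.

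Genes entered the test where 3 or more libraries held 10 or more normalized counts. The test was limma 3.58.1, run in R 4.3.3 on the log2 of the normalized count plus 1, with trended and robust variances and Benjamini-Hochberg adjustment over all genes tested, at a threshold of 0.05. The scale understates the change of low genes. Alternatives included edgeR 4.0.16 and DESeq2 1.42.0 on the recovered reads, other pseudocounts, filters and scalings, quality weights, a replicate block and leaving out each library. The scripts were tested on simulated data.

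The 32 genes and all lists were chosen with earlier results of these data known. All 32 genes were named, and of each pathway list the 3 genes with the lowest p and every gene called lower. Some of these genes are not reported here. Of the marker lists, counts, sums and genes at 0 or defining were named, and other genes named were chosen after their values were seen. Gene lengths came from GENCODE M21 and promoters from RefSeq (GRCm38.p6). A planned search of protein sequences was not run.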

Additional observations from a re-analysis of the deposited data

Results flagged for a closer look

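Among the 4 controls, 1 library lay far from the rest for 4 of the 32 genes. On the log2 scale the gap between control 2 and the next control was 0.841 of the whole range of the controls for Cd3g, 0.82904 for Lck, 0.866 for Zap70 and 0.893 for Lat, each above the 95% critical value of Dixon's test for 4 samples. The Lck value exceeds it only in the fifth decimal. All 4 were high in control 2. Chance flags about 1 group in 20, and the 32 genes are not independent of one another. Over all 15258 genes tested, 3.32% had a control this far from the others. Control 2 was on the wide side of the range, and high, for 29 of the 32 genes.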

How the results depend on the processing

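Of 556 alternative values for single genes of the list, 527 kept their direction and their side of the threshold, 25 lost the call, 4 gained it and 0 changed sign. The settings with the most losses were the fit without ICI-myocarditis 3 (7) and edgeR (4), and the gains were Txk and Lef1 with quality weights or without control 2. The 29 genes called higher ranged from 22 to 31 over the libraries left out in turn. Leaving out libraries gave 986 to 3340 calls over the whole table (2397 with all), 4 to 13 genes lower relative to the CD3 chains (6 with all) and 25 to 46 pathway calls (45 with all). The lowest whole-table and pathway counts came without ICI-myocarditis 3, the highest without control 2. The whole-table count also fell to 1508 without control 1, 1298 without control 3 and 1396 without ICI-myocarditis 2. Quality weights gave 3974 calls over the whole table and 14 genes lower relative to the CD3 chains. The cause was not tested. A reference without Cd247, chosen after seeing the data, gave 7. The comparison relative to the CD3 chains was not run with edgeR or DESeq2. The replicate numbers did not pair the samples: deviations of same-numbered libraries correlated at -0.27, -0.21 and -0.08. With a replicate block the calls were 1780 over the whole table, 29 in the list, 37 in the pathway lists and 3 relative to the CD3 chains. Precision is lowest where reads are few: Trat1, at most 1.23 normalized counts in controls, did not enter the test, and Sh2d1a did not exceed 7.51 in controls other than control 2.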

Other observations

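The ratio of normalized counts was read in each library for some pairs of genes of the list. These ratios are not corrected for length and are compared between libraries only, and the pairs were chosen after values were seen. Zap70 over Lck was 0.370, 0.557, 0.222 and 0.238 in controls 1 to 4 and 0.679, 0.704 and 0.586 in ICI-myocarditis 1 to 3. The ICI-myocarditis libraries were all above the controls, with control 2 nearest to them. Txk over Lck was 0.148, 0.159, 0.222 and 0.190 in controls and 0.0755, 0.0266 and 0.0329 in ICI-myocarditis, all below the controls, and here control 2 lay among the other controls. Cd3d over Cd3e was 1.51 in ICI-myocarditis 1 against 0.448 and 0.333 in replicates 2 and 3, while the controls ran from 0.350 to 1.75. Cd3g over Cd3e was 0.678, 0.547 and 0.549 in the same ICI-myocarditis libraries, so the library that was high for Cd3d was less so for Cd3g. In the controls Cd3g over Cd3e ran from 0.443 to 2.20. Neither ratio was tested.

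Genes of further cell types were read as lists. Of 6 endothelial genes, limma called Kdr and Tek lower (4.00% of all genes tested), in 12 and 11 of 18 alternatives. At an unadjusted limma p below 0.05, 5 were lower, and edgeR called 2 lower and DESeq2 5. The endothelial sums were 28820 to 76602 normalized counts in controls, lowest in control 4, and 21933 to 28307 in ICI-myocarditis. Of 5 mast cell genes tested, limma called Cpa3 and Mcpt4 lower, edgeR 1 and DESeq2 2. The Cpa3 call held in 12 of 17 alternatives and the Mcpt4 call in 7 of 17, with both genes between 6.52 and 48.8 normalized counts in all libraries. Of 6 dendritic cell genes, Flt3 and Xcr1 were higher, and of 4 plasma cell genes tested, Igj was higher. Of 5 atrial genes tested, Nppa and Dkk3 were higher, which ventricular muscle can also express, and Myl7, Myl4 and Stard10 were not called. The part of these cells in the values of the 32 genes was not tested.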
